A study of Mus musculus with 16 samples.

Results

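Small nucleolar RNAs (snoRNAs) were examined in stranded total RNA sequencing of CD4+ and CD8+ tumor-infiltrating lymphocytes (TILs). A snoRNA was taken as detected when its row, typed as snoRNA in the table of counts per gene, had a mean of at least 10 raw counts over the 16 libraries. This rule kept 95 of 1507 snoRNA rows, among 55450 rows of the table. By name, 25 of the 95 were box C/D snoRNAs (*Snord*), 9 were H/ACA snoRNAs (*Snora*), 1 was a Cajal body RNA (*Scarna9*) and 60 carried a name that gives no class, mostly a predicted-gene (*Gm*) name. Because these genes were chosen by their mean count, their level over all libraries is given as a description only. The TILs came from subcutaneous tumors of B16F10, a mouse melanoma line, in wild-type (WT) and *Sirt2*-/- animals, and each of the 4 groups had 4 libraries. Per the methods, WT mice were C57BL/6J and *Sirt2*-/- mice B6.129-Sirt2tm1.1Fwa/J, a germline deletion carried by the T cells and by the tumor-bearing host alike, at 7 to 8 weeks of age. TILs were enriched with CD3ε MicroBeads, and RNA libraries were depleted of ribosomal RNA. The labels give a replicate number but not whether CD4+ and CD8+ libraries of 1 number came from 1 animal, so p values measure the spread between these libraries.

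snoRNAs are short nuclear RNAs that pair with ribosomal RNA and guide its chemical modification. Box C/D snoRNAs, named for their C and D sequence boxes, guide ribose methylation by the methyltransferase fibrillarin (*Fbl*), together with *Nop56*, *Nop58* and *Snu13*. H/ACA snoRNAs, which end with the letters ACA and a short tail, guide pseudouridylation by the synthase dyskerin (*Dkc1*), together with *Gar1*, *Nhp2* and *Nop10*. Cajal body RNAs do the same for spliceosomal RNAs. In vertebrates most snoRNAs are cut from introns of host genes, many of which encode ribosomal proteins, and T cells raise ribosome production when they are activated.

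The sequences of the snoRNAs on which the values below turn are shown first, as GENCODE M21 transcripts (GRCm38), 5′ to 3′ and with T for U. The 4 most abundant detected snoRNAs, all with C and D box letters, were *Snord17* (ENSMUSG00000077714.1, chr2:144265979-144266216, minus strand, intron of *Snx5*), *Snord15a* (ENSMUSG00000065822.1, chr7:99482785-99482932, minus strand, intron of *Rps3*), *Gm25835* (chr11:69668852-69668995, minus strand, intron of *Eif4a1*) and *Gm24339* (chr9:15326464-15326539, minus strand, intron of *Cep295*). Capitals mark TGATG within the first 25 bases and CTGA within the last 25 bases, letters of the C and D boxes.
Snord17: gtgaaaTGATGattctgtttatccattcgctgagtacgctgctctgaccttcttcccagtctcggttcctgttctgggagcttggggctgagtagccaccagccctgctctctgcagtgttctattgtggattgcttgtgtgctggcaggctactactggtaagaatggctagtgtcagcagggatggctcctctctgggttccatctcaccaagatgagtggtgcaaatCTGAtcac
Snord15a: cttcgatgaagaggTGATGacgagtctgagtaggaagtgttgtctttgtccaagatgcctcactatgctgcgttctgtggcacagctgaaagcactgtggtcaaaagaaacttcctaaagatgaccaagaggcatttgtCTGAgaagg
Gm25835: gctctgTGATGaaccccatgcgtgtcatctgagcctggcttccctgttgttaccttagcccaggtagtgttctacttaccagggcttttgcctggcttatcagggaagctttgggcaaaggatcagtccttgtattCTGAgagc
Gm24339: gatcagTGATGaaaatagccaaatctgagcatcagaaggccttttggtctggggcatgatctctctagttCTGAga

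The most abundant *Snora* gene, *Snora21* (ENSMUSG00000064901.1, chr11:97781639-97781775, minus strand, intron of *Rpl23*), is shown beside *Gm26448* (chr9:120129351-120129553, plus strand, intron of *Rpsa*) and *Snora73b* (chr4:132352322-132352526, minus strand, within *Rcc1*). *Gm26448* and *Snora73b* were 87.8% identical over their sequences. Capitals mark ACA followed by exactly 3 bases at the end.
Snora21: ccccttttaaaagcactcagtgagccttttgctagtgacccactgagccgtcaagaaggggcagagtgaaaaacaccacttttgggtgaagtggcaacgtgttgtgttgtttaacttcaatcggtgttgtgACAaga
Gm26448: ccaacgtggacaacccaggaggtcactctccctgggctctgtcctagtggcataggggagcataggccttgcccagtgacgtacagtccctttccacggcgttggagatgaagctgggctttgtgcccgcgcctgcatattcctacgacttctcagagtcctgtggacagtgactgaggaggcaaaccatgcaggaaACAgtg
Snora73b: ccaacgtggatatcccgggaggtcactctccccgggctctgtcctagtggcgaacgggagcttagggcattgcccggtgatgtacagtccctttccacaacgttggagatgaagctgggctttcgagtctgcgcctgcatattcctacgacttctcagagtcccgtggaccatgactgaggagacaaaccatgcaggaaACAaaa

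A further 2 are shown because 1 library held most of their counts. They were *Snord53* (chr17:71640879-71640956, plus strand, intron of *Wdr43*) and *Gm25632* (chr2:32225653-32225737, plus strand, intron of *Prrc2b*). *Snord53* did not hold both sets of box letters in the windows searched, and is in lower case throughout.
Snord53: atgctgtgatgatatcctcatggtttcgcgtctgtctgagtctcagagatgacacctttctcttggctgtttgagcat
Gm25632: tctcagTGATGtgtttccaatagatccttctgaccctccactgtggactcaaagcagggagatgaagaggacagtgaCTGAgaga

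The letters followed the names. C and D box letters were found in 20 of the 25 *Snord* genes and in none of the 9 *Snora* genes, and ACA at the end in 8 of the 9 *Snora* genes and in none of the *Snord* genes. Of the 60 detected snoRNAs without a class in their name, 15 held the C and D box letters, 31 the ACA letters, 2 both and 12 neither. The search read the transcript strand only. Over the snoRNA rows below the threshold, 22.6% held the C and D box letters and 16.3% the ACA letters, against 37.9% and 41.1% of the detected snoRNAs. Detected box C/D snoRNAs had a median length of 84 bases (range 68 to 238) and detected H/ACA snoRNAs of 137 bases (range 128 to 205). Of snoRNA rows of at least 140 bases 13.45% were detected, against 3.846% to 9.659% in the shorter length ranges. How well RNA of each length was recovered was not tested.

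Detection was more frequent among named snoRNAs. The share detected was 25.5% of 98 *Snord* rows and 21.4% of 42 *Snora* rows, against 4.396% of 1365 rows without a class in their name, and 1216 of the 1507 rows had no count in any library. At the threshold lay *Gm22247* (mean count 10.25) and *Gm24837* (10.1) on the inside and *Gm22362* (9.5) and *Gm23346* (9.06) on the outside. Counts were concentrated: the 10 most abundant detected snoRNAs held 69.6% of all counts on the 95, and the 95 together held a mean of 0.0145% to 0.0243% of a library's counts in the 4 groups.

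Most detected snoRNAs lay within a host gene. A gene of another type on the same strand contained 90 of the 95, and none of these 90 overlapped an exon of a gene that contained it. Same-strand genes that overlap a snoRNA only in part were not searched. Where several genes contained a snoRNA, the longest was taken as its host. The host was protein-coding for 82 and noncoding for 8, with 75 different hosts. Ribosomal protein genes hosted 16 detected snoRNAs in 11 genes, and 3 more (*Snord34*, *Snord32a* and *Snord35a*) lay in *Gm45713*, a gene model whose interval holds *Rpl13a*. The 5 without a host were *Snord13*, *Snord118*, *Snord104*, *Snora17* and *Snora57*. *Snord13* and *Snord118* are known as snoRNAs transcribed from genes of their own. The counting mode is not given in the sources used here, and reads of an intron that has not been spliced out and reads of the mature snoRNA cannot be told apart in these counts.

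snoRNAs of the same host gene differed widely in measured level, and recovery by length was not tested. Levels are given as CPM, counts scaled to the library size by TMM. Across the 90 pairs, which share all libraries, the Spearman correlation between the mean CPM of the snoRNA and of its host was 0.21. The value depends on the choice of host. *Gm45713*, host of *Snord34*, *Snord32a* and *Snord35a*, and *Zfp935*, host of *Gm24095*, had a mean of 0 CPM. *Snord17*, the most abundant, averaged 203.2 CPM per kb within *Snx5*, a sorting nexin gene, whereas *Gm26165* in the same gene averaged 13.0 CPM per kb, a ratio of 15.6. *Gm24339* averaged 192 CPM per kb and *Scarna9*, 130 bases away from it in *Cep295*, averaged 15.8 CPM per kb. *Snora21* averaged 53.3 CPM per kb, against 5.32 for *Gm27326* in *Rpl23*. In all, 14 hosts held 29 detected snoRNAs, and the ratio between the highest and the lowest level per kb within a host ran from 1.33 in *Pabpc4* to 15.6 in *Snx5*.

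**Figure D1:**
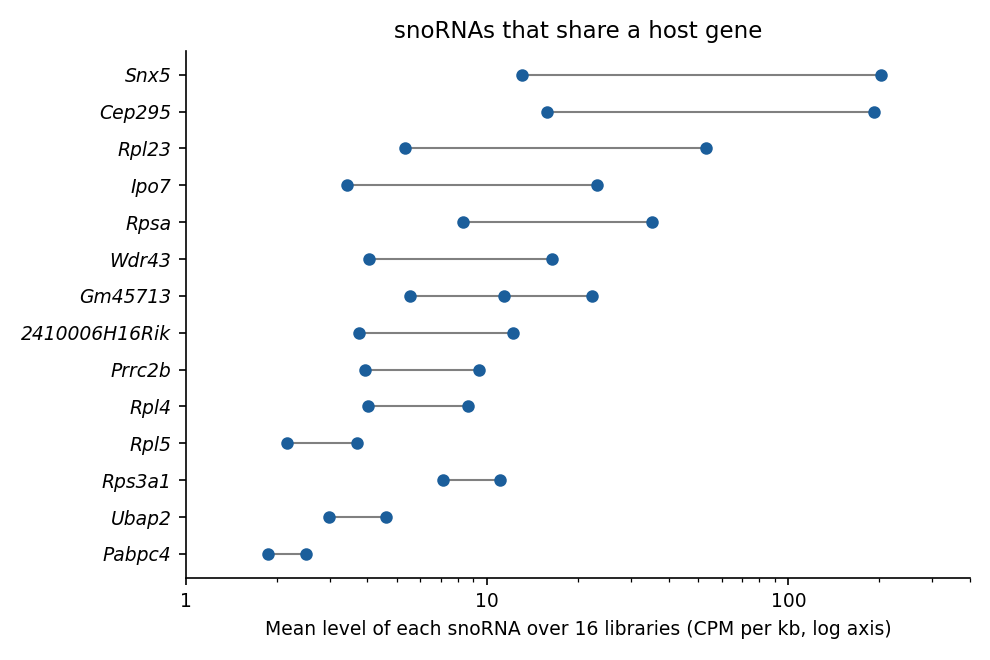
Mean level over the 16 libraries (CPM per kb, log axis) of each detected snoRNA, for the 14 host genes that hold more than 1, with a line joining the snoRNAs of a host. The widest gaps, in *Snx5*, *Cep295* and *Rpl23*, span ratios of 15.6, 12.1 and 10.01.

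Near-identical copies limit some rows. Of the 95, 38 had another snoRNA row of at least 85% identity, and 13 pairs, with 23 members, were both detected. *Gm25632* and *Gm22192* have the same 85 bases at separate positions within *Prrc2b*. Yet they had 241 and 0 counts in WT CD4+ replicate 1, and 0 and 29 counts in WT CD8+ replicate 1. How the counting assigned reads that match both is not given in the sources used here, so the split between such copies is uncertain. *Gm24539* and *Gm24095* were 99.2% identical and averaged 1.07 and 0.26 CPM.

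Library totals ran from 28000949 to 62407851 counts, and 3 libraries stood apart. *Sirt2*-/- CD4+ replicate 4 had counts on 8169 genes, WT CD4+ replicate 1 on 12587 and WT CD8+ replicate 1 on 14411, whereas all others had counts on 17730 to 22138. *Sirt2* was at 33.4 to 75.6 CPM in WT and at 0 to 12.2 CPM in *Sirt2*-/- libraries. Summed *Cd4* and *Cd40lg* were at 384 to 663 CPM in CD4+ and at 0 to 5.36 CPM in CD8+ libraries, and summed *Cd8a* and *Cd8b1* at 1461 to 2046 CPM in CD8+ and at 14.0 to 74.9 CPM in CD4+ libraries. The 10 myeloid markers summed to at most 149.3 CPM and the 7 melanoma markers to at most 98.4 CPM, against 1726 to 2829 CPM for 6 T cell markers. The 4 NK cell markers, some of which CD8+ T cells also express, summed to 210.3 to 417.6 CPM in CD8+ and 15.7 to 45.7 CPM in CD4+ libraries, and their part in the cell type comparisons was not tested.

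The same 3 libraries lacked snoRNAs. No count was present for 88 of the 95 in *Sirt2*-/- CD4+ replicate 4, for 57 in WT CD4+ replicate 1, and for 34 in WT CD8+ replicate 1. In the other libraries 0 to 8 had no count. *Sirt2*-/- CD4+ replicate 4 had the highest total of all libraries, where a count of 0 allows a level of up to 3 counts, or 0.0537 CPM on the scale used here, counting error only. It held 1857 counts of *Gm24339*, 860 of *Snora21* and 327 of *Snord13*, each the highest count of that snoRNA in any library, and 1 count of *Snord17*. The number of snoRNAs called and their median log2 fold change are therefore given with and without these libraries in each comparison below.

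**Figure D2:**
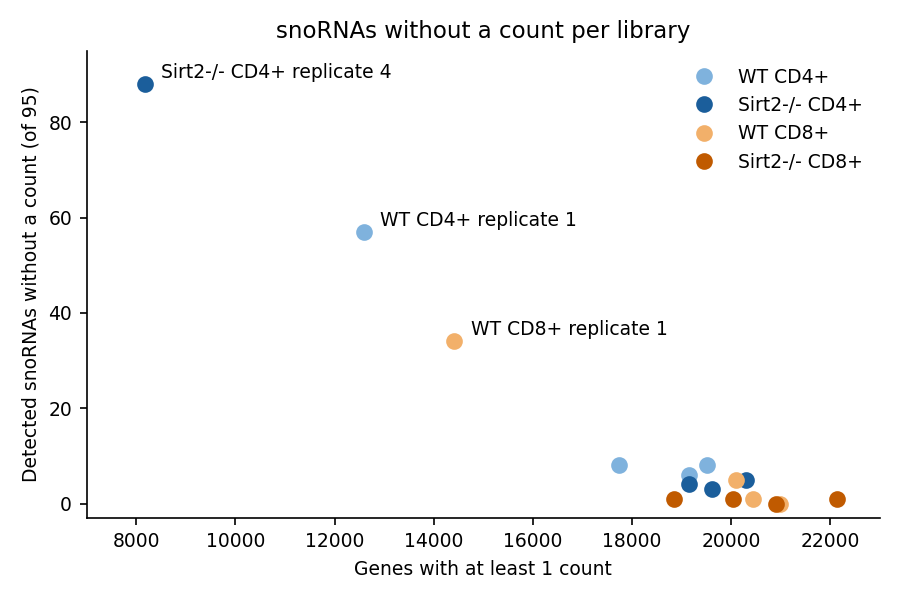
Number of the 95 detected snoRNAs without a count (vertical axis) against the number of genes with at least 1 count (horizontal axis), 1 point per library, colored by group. The 3 named libraries lie at 88, 57 and 34 snoRNAs without a count, and all others between 0 and 8.

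The summed level of the 25 box C/D snoRNAs overlapped between the 4 groups. It was 48.3, 73.2, 69.0 and 175.6 CPM in WT CD4+ replicates 1 to 4, and 109.9, 67.9, 48.2 and 5.998 CPM in *Sirt2*-/- CD4+ replicates 1 to 4. In CD8+ TILs it was 138.9, 84.9, 108.9 and 102.2 CPM in WT and 161.8, 132.6, 83.7 and 92.0 CPM in *Sirt2*-/- replicates. The lowest value of all was that of *Sirt2*-/- CD4+ replicate 4. In bulk samples such as these, fewer cells of a type and less RNA per cell cannot be told apart. *Snord17* and *Snord15a* carried most of the sums, with *Snord17* the leading box C/D snoRNA in 14 libraries at 46.8% to 68.4% of the class.

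Summed H/ACA levels of the 9 *Snora* genes overlapped as well. They were 13.5, 17.6, 14.2 and 22.8 CPM in WT CD4+ and 19.8, 15.8, 12.4 and 15.4 CPM in *Sirt2*-/- CD4+ replicates. In CD8+ TILs they were 25.9, 10.4, 22.7 and 16.4 CPM in WT and 20.3, 37.2, 18.5 and 17.1 CPM in *Sirt2*-/- replicates. *Sirt2*-/- CD8+ replicate 2 was higher than every other library. In *Sirt2*-/- CD4+ replicate 4 the H/ACA sum lay within its group although *Snora21* alone made up 100% of it.

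Of the other abundant box C/D snoRNAs, *Snord34* had 13, 90, 49 and 108 counts in WT CD4+ and 103, 87, 31 and 0 counts in *Sirt2*-/- CD4+ replicates, and 36, 23, 62 and 61 counts in WT CD8+ and 158, 66, 80 and 92 counts in *Sirt2*-/- CD8+ replicates. *Snord34* lay above its WT CD8+ counts in every *Sirt2*-/- CD8+ library, but by CPM its groups overlapped in every comparison. *Snord118*, a snoRNA needed to process the large-subunit ribosomal RNA, was low and uneven, at 0.90 ± 0.79 CPM in WT CD4+, 0.44 ± 0.42 in *Sirt2*-/- CD4+, 1.20 ± 0.83 in WT CD8+ and 1.20 ± 0.52 in *Sirt2*-/- CD8+ TILs (SD, n = 4 each).

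Among the H/ACA snoRNAs, *Snora23*, a guide for large-subunit ribosomal RNA in an intron of *Ipo7*, had 172, 248, 190 and 138 counts in WT CD4+ and 237, 126, 111 and 0 counts in *Sirt2*-/- CD4+ replicates. In CD8+ TILs it had 231, 79, 183 and 98 counts in WT and 167, 426, 207 and 162 counts in *Sirt2*-/- replicates. The high value was *Sirt2*-/- CD8+ replicate 2, and this library was also high for *Snora73b*, with 65, 211, 68 and 44 counts in *Sirt2*-/- and 32, 29, 53 and 33 counts in WT CD8+ replicates. *Snora73b*, of a family that acts in cleavage of ribosomal RNA precursors, lies over an exon of *Gm17300* on the other strand, and the strand setting of the counting is not known. In CD4+ TILs *Snora73b* had 132, 31, 63 and 196 counts in WT and 91, 126, 55 and 0 counts in *Sirt2*-/- replicates, so no group stood apart.

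*Snora17* and *Snora31* were lower and lacked counts in the same libraries. *Snora17* had 0, 42, 25 and 60 counts in WT CD4+ and 59, 72, 103 and 0 counts in *Sirt2*-/- CD4+ replicates, and 119, 72, 66 and 85 counts in WT CD8+ and 81, 58, 96 and 115 counts in *Sirt2*-/- CD8+ replicates. *Snora31*, in the translation-controlled protein gene *Tpt1*, had 0, 59, 25 and 132 counts in WT CD4+ and 112, 67, 52 and 0 counts in *Sirt2*-/- CD4+ replicates, and 17, 25, 78 and 48 counts in WT CD8+ and 76, 48, 43 and 88 counts in *Sirt2*-/- CD8+ replicates. Both were at 0 in WT CD4+ replicate 1 and *Sirt2*-/- CD4+ replicate 4, and *Snora17* lay higher in every WT CD8+ than in every WT CD4+ library. The Cajal body RNA *Scarna9* had its highest group mean in WT CD4+ TILs, at 1.92 ± 0.80 CPM, against 0.63 ± 0.62 in *Sirt2*-/- CD4+, 1.002 ± 0.56 in WT CD8+ and 0.88 ± 0.56 in *Sirt2*-/- CD8+ TILs (SD, n = 4 each), and the groups overlapped.

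The classes were compared with each other per length, as measured levels with no correction for recovery by length. The log2 ratio of summed CPM per kb, box C/D over H/ACA, was 2.21 ± 0.48 in WT CD4+, 2.54 ± 0.35 in WT CD8+ and 2.31 ± 0.48 in *Sirt2*-/- CD8+ TILs (SD, n = 4 each). It was 1.37 ± 1.56 in *Sirt2*-/- CD4+ TILs, where replicates 1 to 3 had 2.38, 2.16 and 1.88 and replicate 4 had -0.95. The 60 snoRNAs without a class in their name summed to 84.8 ± 8.06 CPM in WT CD4+, 68.7 ± 25.5 in *Sirt2*-/- CD4+, 96.1 ± 15.7 in WT CD8+ and 104.6 ± 13.5 in *Sirt2*-/- CD8+ TILs (SD, n = 4 each). By group mean, 42 of the 95 snoRNAs were highest in *Sirt2*-/- CD8+, 31 in WT CD8+, 13 in WT CD4+ and 9 in *Sirt2*-/- CD4+ TILs, and 46 were lowest in *Sirt2*-/- CD4+ TILs. Without the 3 libraries that stood apart these numbers were 39, 22, 17 and 17, and 37 were lowest in *Sirt2*-/- CD4+ TILs. The same counts over all genes are not given here, so these numbers are a description only.

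**Figure D3:**
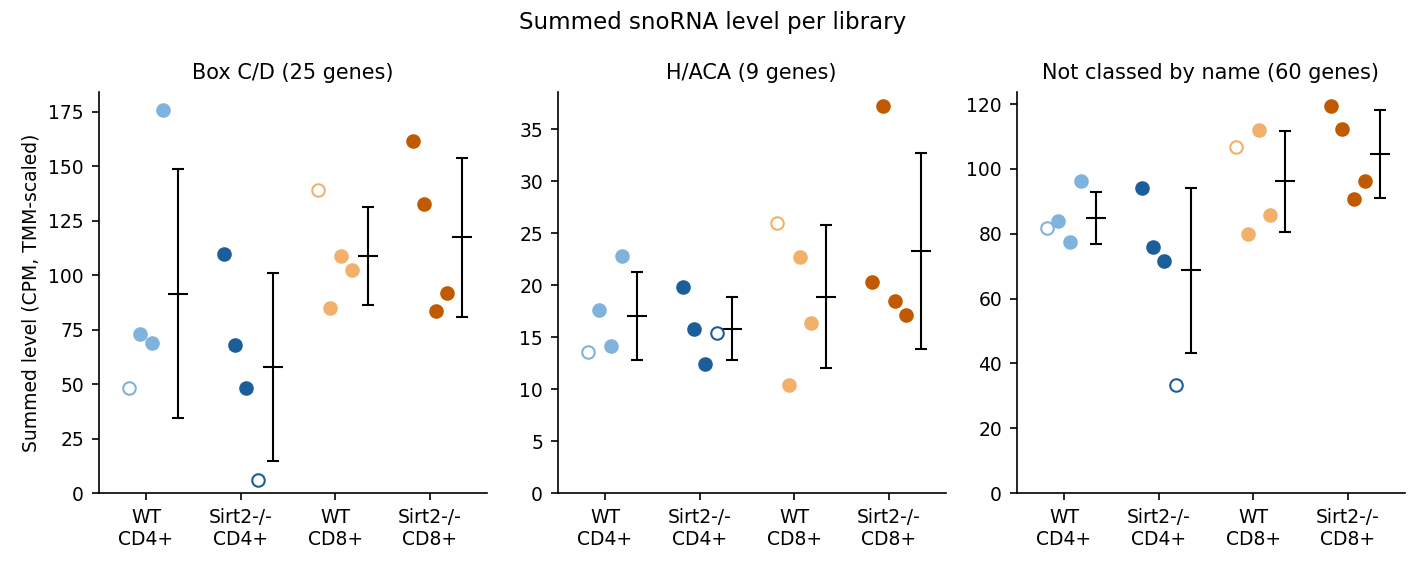
Summed CPM per library of the 25 box C/D, 9 H/ACA and 60 unclassed detected snoRNAs in the 4 groups, with the mean and SD beside each group and open points for the 3 libraries with under 15000 genes detected. Groups overlap in each panel, and the box C/D panel spans 5.998 to 175.6 CPM.

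Loss of *Sirt2* was compared first in CD4+ TILs, with edgeR's quasi-likelihood test over all genes that passed a filter on low counts and a Benjamini-Hochberg adjusted p below 0.05 as the call. The filter kept 73 of the 95 snoRNAs. No snoRNA was called, where 0% of 15070 genes were called. At an unadjusted p below 0.05 there were 0, against 1.26% of all tested genes. DESeq2 and limma-voom called 0 snoRNAs as well, and 7 and 4 genes in all. By edgeR the deleted gene *Sirt2* itself was not called here (log2 fold change -2.6, SE 1.26), so this comparison could miss changes of that size. The median log2 fold change, *Sirt2*-/- over WT, was -0.28 over the tested snoRNAs (27 of 73 above 0) and -0.11 over all tested genes (42% above 0). Its standard error had a median of 1.71 over the tested snoRNAs. Of the libraries that stood apart, this comparison holds *Sirt2*-/- replicate 4 and WT replicate 1. Without them 84 snoRNAs were tested and 0 called, where 0.0374% of genes were called, and the median was -0.20. Without *Sirt2*-/- replicate 4 alone the median turned to 0.0979, with 50 of 87 above 0, so its direction depended on which libraries were fitted. The groups did not overlap for 1 tested snoRNA, *Snora62*, where this held for 3.13% of all tested genes. *Snora62*, an H/ACA snoRNA in *Rpsa*, had 41, 61, 46 and 47 counts in WT and 11, 30, 29 and 0 counts in *Sirt2*-/- replicates.

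The most abundant snoRNAs had overlapping groups in CD4+ TILs. *Snord17*, a guide for large-subunit ribosomal RNA, had 994, 1644, 1815 and 3505 counts in WT and 2723, 1402, 1131 and 1 counts in *Sirt2*-/- replicates. Its mean was 51.2 ± 29.7 CPM in WT and 29.7 ± 24.7 CPM in *Sirt2*-/- TILs (SD, n = 4 each), a log2 fold change of -0.77 (SE 1.26, edgeR adjusted p = 1). *Snord15a*, carried by the ribosomal protein gene *Rps3*, had 359, 1062, 800 and 1977 counts in WT and 1485, 787, 603 and 0 counts in *Sirt2*-/- replicates. The log2 fold change of *Snord15a* was -0.70, and without the libraries that stood apart those of *Snord17* and *Snord15a* were -0.52 and -0.54. For both, the lowest *Sirt2*-/- library was replicate 4. By CPM the other 3 lay within the WT range for *Snord15a*, whereas for *Snord17* replicate 3, at 25.5 CPM, also lay below the lowest WT library, at 33.0 CPM.

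*Snora21*, the leading H/ACA snoRNA, had 51, 325, 248 and 244 counts in WT and 357, 216, 164 and 860 counts in *Sirt2*-/- CD4+ replicates. Its log2 fold change was 0.60 (SE 1.02, edgeR adjusted p = 1) and turned to -0.20 without the libraries that stood apart. The snoRNA with the smallest p in CD4+ TILs was *Snord13*, with 0, 19, 7 and 13 counts in WT and 20, 7, 4 and 327 counts in *Sirt2*-/- replicates. Its log2 fold change of 2.78 (SE 1.80, edgeR adjusted p = 1) came with 1 high library, and without the libraries that stood apart it was -0.39. *Gm25632* had 241, 30, 28 and 16 counts in WT and 15, 0, 57 and 0 counts in *Sirt2*-/- replicates, a log2 fold change of -2.54 (SE 1.97, edgeR adjusted p = 1). Here the high library was WT replicate 1, which also had few genes detected. The log2 fold change of *Gm25632* was -0.50 without that library and -0.0855 without the libraries that stood apart.

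In CD8+ TILs the filter kept 88 of the 95 snoRNAs. None was called between genotypes, where 0.00654% of 15302 genes were called. Of the 88, 1 had an unadjusted p below 0.05, against 3.78% of all tested genes. DESeq2 and limma-voom called 0 snoRNAs, and 28 and 5 genes in all. By edgeR *Sirt2* itself was called lower here (log2 fold change -2.22, SE 0.21, edgeR adjusted p = 0.00663). The median log2 fold change, *Sirt2*-/- over WT, was 0.16 over the tested snoRNAs (55 of 88 above 0) and 0.01 over all tested genes (51.9% above 0). By class it was 0.12 over 24 box C/D, 0.34 over 9 H/ACA and 0.15 over 54 unclassed snoRNAs. Without WT replicate 1, the library of this pair of groups with few genes detected, 91 snoRNAs were tested, 0 were called, where 0.0439% of genes were called, and the median was 0.19. The groups did not overlap for 1 snoRNA, *Snord73a*, where this held for 2.95% of all tested genes.

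*Snord17* had 2732, 1201, 1876 and 1865 counts in WT and 3786, 2890, 1996 and 2154 counts in *Sirt2*-/- CD8+ replicates. The means were 54.5 CPM (range 31.8 to 82.6) and 58.0 CPM (range 40.5 to 77.0), with a log2 fold change of 0.09 (SE 0.29, edgeR adjusted p = 0.991). The groups overlapped throughout, as they did for *Snord15a* (log2 fold change 0.24, SE 0.24), *Snora21* (0.41, SE 0.42) and *Snora23* (0.34, SE 0.50). The box C/D snoRNA *Snord53* had the smallest p, with 431, 15, 64 and 17 counts in WT and 47, 10, 10 and 17 counts in *Sirt2*-/- replicates. Its log2 fold change was -3.16 (SE 1.12, unadjusted p = 0.0165, edgeR adjusted p = 0.986), and WT replicate 1 held the highest count. Without that library it was -0.98. *Gm23297*, within *Nap1l4*, had 18, 10, 43 and 26 counts in WT and 71, 156, 32 and 82 counts in *Sirt2*-/- replicates, a log2 fold change of 1.48 (SE 0.72, edgeR adjusted p = 0.986).

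Whether the genotype effect differed between the cell types was tested over all 16 libraries. All 95 snoRNAs passed the filter and 0 were called, where 0% of 17270 genes were called. At an unadjusted p below 0.05 there were 0, against 1.98% of all tested genes. DESeq2 called 0 snoRNAs, and 2 genes in all. The median log2 difference, CD8+ minus CD4+ genotype effect, was 0.37 over the snoRNAs. Without the 3 libraries that stood apart 95 were tested and 0 called, where 0% of 17993 genes were called, 3 had an unadjusted p below 0.05, against 3.69% of all tested genes, and the median was 0.29. The smallest p values with all libraries were those of *Gm25632* (log2 difference 4.07, SE 2.45) and *Gm27326* (3.55, SE 2.15), both with an edgeR adjusted p of 1. Without the 3 libraries these differences were 1.18 and 3.13. The standard error of the difference had a median of 1.97 over the snoRNAs and 1.41 over all genes.

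**Figure D4:**
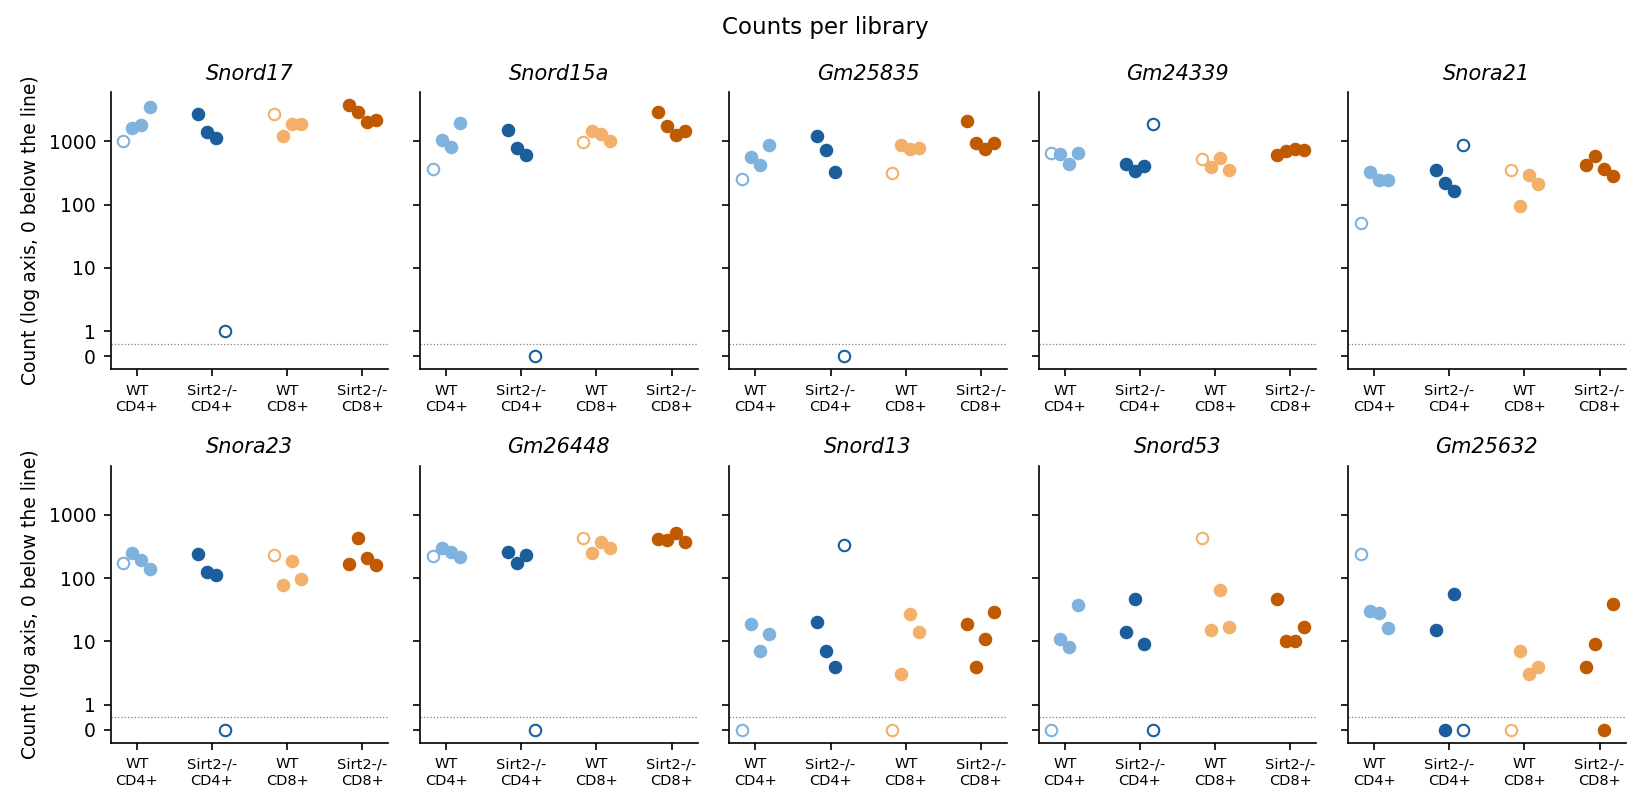
Counts in each library (log axis, with 0 drawn below the dotted line) of 10 detected snoRNAs in the 4 groups, with open points for the 3 libraries with under 15000 genes detected. *Snord17* has 1 count in *Sirt2*-/- CD4+ replicate 4 and 994 to 3786 elsewhere, while *Gm24339*, *Snora21* and *Snord13* are highest in that library.

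CD8+ TILs were then compared with CD4+ TILs. In WT mice 76 of the 95 snoRNAs passed the filter and none was called, where 11.9% of 14892 genes were called, and 1 had an unadjusted p below 0.05, against 24.3% of all tested genes. DESeq2 called 1 (*Snord53*), where it called 17.8% of all genes, and limma-voom with quality weights called 5 (*Gm25835*, *Gm25632*, *Snord49b*, *Snord110* and *AF357399*), where it called 37% of all genes. The median log2 fold change, CD8+ over CD4+, was 0.30 over the tested snoRNAs (47 of 76 above 0) and -0.02 over all tested genes (48.6% above 0). Without the libraries that stood apart it was -0.002 over 85 tested snoRNAs, of which 42 were above 0. In that smaller set *AF357399* was called, where 28% of genes were called. *AF357399*, in an intron of the ribosomal protein gene *Rps16*, had 0, 4, 14 and 14 counts in CD4+ and 0, 52, 89 and 75 counts in CD8+ WT replicates. Its log2 fold change in the smaller set was 2.91 (SE 0.76, edgeR adjusted p = 0.0158), against 2.80 (SE 1.64, edgeR adjusted p = 0.338) with all libraries. It is also the only detected snoRNA within 10 Mb of *Sirt2* on chromosome 7 (chr7:28351508-28351632).

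The snoRNA nearest the threshold in WT mice was *Gm25632*, with 241, 30, 28 and 16 counts in CD4+ and 0, 7, 3 and 4 counts in CD8+ replicates. The groups did not overlap, and its log2 fold change was -4.65 (SE 1.53, edgeR adjusted p = 0.0765). *Gm22192*, of identical sequence, had 0, 26, 23 and 8 counts in CD4+ and 29, 19, 7 and 12 counts in CD8+ WT replicates, and these groups overlapped. *Snord53* followed with 0, 11, 8 and 37 counts in CD4+ replicates and the 431, 15, 64 and 17 counts in CD8+ replicates, a log2 fold change of 3.37 (SE 1.54, edgeR adjusted p = 0.209). Without the libraries that stood apart the log2 fold change was -2.15 for *Gm25632* and 0.88 for *Snord53*. Groups did not overlap for 3 tested snoRNAs, *Gm25632*, *Snora30* and *Snora17*, where this held for 22.7% of all tested genes. For the leading snoRNAs the log2 fold change was 0.02 (SE 0.37) for *Snord17*, 0.23 (SE 0.40) for *Snord15a* and 0.30 (SE 0.61) for *Snora21*. Without the libraries that stood apart that of *Snord17* was -0.35 and that of *Snora21* -0.22.

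In *Sirt2*-/- mice more snoRNAs lay above 0 than in WT mice, as did more of all tested genes. Of all tested genes 58.4% lay above 0, against 48.6% in WT mice. Of 89 snoRNAs that passed the filter 72 had a log2 fold change above 0, CD8+ over CD4+, with a median of 0.78 against 0.16 over all tested genes. None was called, where 2.24% of 15787 genes were called, and 1 had an unadjusted p below 0.05, against 11.7% of all tested genes. DESeq2 called 1 (*Gm27326*), where it called 8.49% of all genes, and limma-voom called 3 (*Gm24339*, *Snora62* and *Gm26448*), where it called 28.4% of all genes. Without CD4+ replicate 4 the median was 0.36 over 93 tested snoRNAs, 67 above 0, against a median of -0.004 over all tested genes. By class that smaller set had medians of 0.44 over 25 box C/D, 0.68 over 9 H/ACA and 0.18 over 58 unclassed snoRNAs, and 22, 8 and 36 of them lay above 0.

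The 2 called in *Sirt2*-/- mice without CD4+ replicate 4 were *Gm24339* and *Gm26448*, where 25.4% of genes were called. *Gm24339* had 439, 343, 412 and 1857 counts in CD4+ and 611, 709, 762 and 723 counts in CD8+ replicates. The log2 fold change of *Gm24339* was 0.69 (SE 0.18, edgeR adjusted p = 0.0153) without that library and -0.01 (SE 0.67, edgeR adjusted p = 0.999) with it. *Gm26448*, in the ribosomal protein gene *Rpsa*, had 259, 175, 233 and 0 counts in CD4+ and 407, 398, 524 and 371 counts in CD8+ replicates, and the groups did not overlap. Its log2 fold change was 0.81 (SE 0.24, edgeR adjusted p = 0.029) without that library and 1.24 (SE 1.37, edgeR adjusted p = 0.954) with it. These values rest on 3 CD4+ libraries against 4.

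With all libraries the smallest p in *Sirt2*-/- mice was that of *Gm27326*, with 5, 8, 3 and 0 counts in CD4+ and 38, 32, 53 and 17 counts in CD8+ replicates, a log2 fold change of 2.98 (SE 1.15, edgeR adjusted p = 0.324). *Gm24539* followed, with 7, 30, 0 and 0 counts in CD4+ and 32, 119, 68 and 58 counts in CD8+ replicates (log2 fold change 2.79, SE 1.59, edgeR adjusted p = 0.629). By CPM the groups did not overlap for 5 snoRNAs, *Gm27326*, *Snora62*, *Snord73a*, *Snord91a* and *Gm26448*, all higher in CD8+ TILs, whereas 22.2% of all tested genes had groups that did not overlap. For *Snord17* the log2 fold change was 0.94 (SE 1.26, edgeR adjusted p = 0.992), with CD8+ counts of 3786, 2890, 1996 and 2154 against 2723, 1402, 1131 and 1. Without CD4+ replicate 4 the log2 fold changes of *Gm27326*, *Gm24539* and *Snord17* were 2.55, 2.37 and 0.52.

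**Figure D5:**
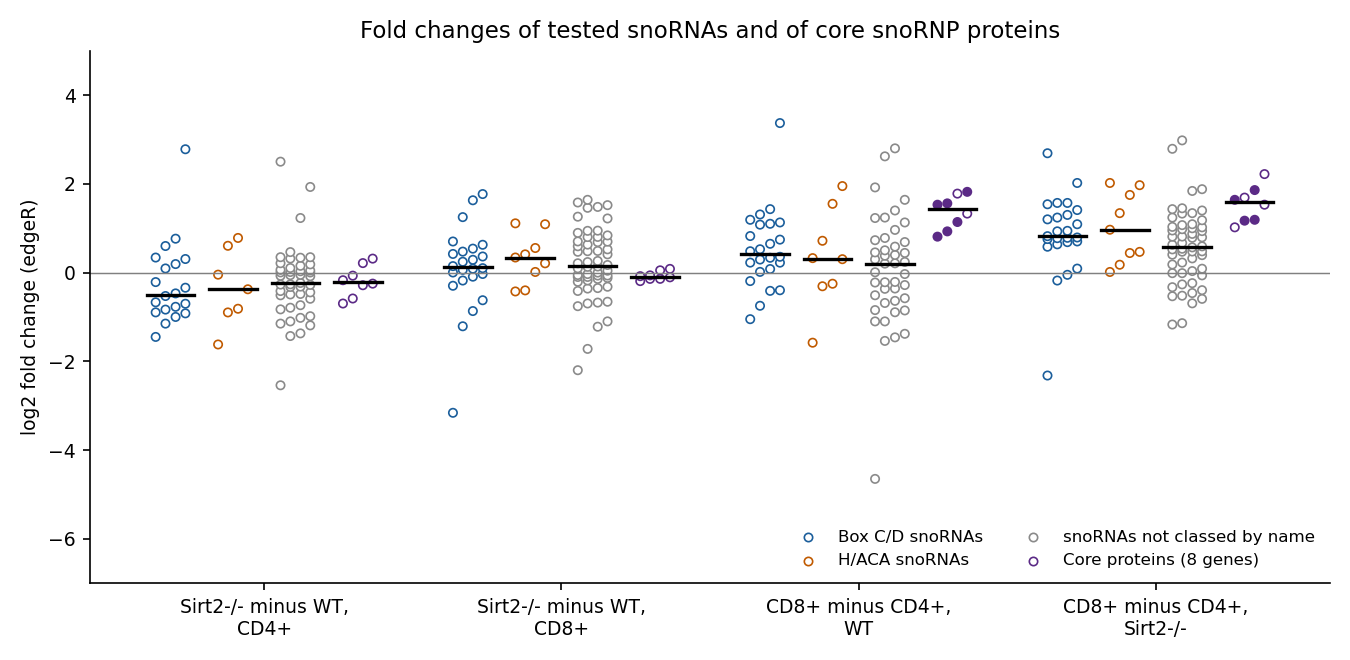
Log2 fold change (edgeR) of each tested detected snoRNA by class, and of the 8 core proteins of the box C/D and H/ACA particles, in the 4 comparisons, with black lines at the medians and filled points for genes with an adjusted p below 0.05. No snoRNA is filled, whereas 6 core proteins are filled for CD8+ minus CD4+ in WT and 4 in *Sirt2*-/- mice.

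The core proteins of the snoRNA particles were compared between the cell types in the same fits. All 4 core proteins of the box C/D particle were called higher in CD8+ than in CD4+ WT TILs, where 4.89% of all tested genes were. *Nop58*, a scaffold protein, ran from 42.4 to 89.0 CPM in CD4+ and from 170 to 254 CPM in CD8+ TILs, a log2 fold change of 1.56 (SE 0.23, edgeR adjusted p = 0.00159). The methyltransferase *Fbl* rose from 47.2 ± 18.6 to 109 ± 16.3 CPM (1.14, SE 0.25, edgeR adjusted p = 0.0123). Its partner *Nop56* rose by 0.93 (SE 0.15) and *Snu13* by 0.81 (SE 0.18) on the log2 scale. In *Sirt2*-/- mice 3 of the 4 were called, *Fbl* (1.64, SE 0.14), *Nop56* (1.19, SE 0.12) and *Nop58* (1.17, SE 0.14), where 0.918% of all tested genes were called higher, while *Snu13* had 1.02 (SE 0.27, edgeR adjusted p = 0.116). Without the libraries that stood apart all 4 were called in both genotypes, where 14.9% of all tested genes were called higher in WT and 13.8% in *Sirt2*-/- mice.

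Of the H/ACA particle, the synthase *Dkc1* was called higher in CD8+ TILs of both genotypes. It was at 45.6 ± 8.24 and 169 ± 5.42 CPM in CD4+ and CD8+ WT TILs (SD, n = 4 each; log2 fold change 1.82, SE 0.16, edgeR adjusted p = 5.4e-05) and at 40.2 ± 12.9 and 148 ± 4.23 CPM in *Sirt2*-/- TILs (1.86, SE 0.25, edgeR adjusted p = 0.00895). *Nhp2* was called in WT mice (1.53, SE 0.29). *Gar1* and *Nop10* were not called, with log2 fold changes of 1.78 (SE 0.92) and 1.33 (SE 0.41) in WT mice, where *Gar1* was at 0 CPM in the lowest CD4+ library. With all libraries 4.89% of all tested genes were called higher in WT and 0.918% in *Sirt2*-/- mice. Without the libraries that stood apart all 4 were called in both genotypes, where 14.9% and 13.8% of all tested genes were called higher. By edgeR no core protein of either particle was called between genotypes in either cell type.

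Of 16 snoRNP assembly and maturation genes, 5 were called higher in CD8+ WT TILs and 1 in *Sirt2*-/- TILs, where 4.89% and 0.918% of all tested genes were, and none lower. The 5 were *Znhit6*, a box C/D assembly factor, *Nolc1*, a chaperone of both particles, the nucleolar proteins *Npm1* and *Ncl*, and *Parn*, a trimming exonuclease. *Nolc1* had a log2 fold change of 1.26 (SE 0.19, edgeR adjusted p = 0.00177) in WT and 1.29 (SE 0.12, edgeR adjusted p = 0.00205) in *Sirt2*-/- mice. Of 15 tested noncoding host genes on the list, *Snhg1* alone was called, in WT mice (1.06, SE 0.25, edgeR adjusted p = 0.0194), and *Gas5* had 0.47 (SE 0.19, edgeR adjusted p = 0.152). Without the libraries that stood apart, 9 and 8 assembly genes were called higher in CD8+ TILs of WT and *Sirt2*-/- mice and 3 and 4 noncoding hosts, where 14.9% and 13.8% of all tested genes were called higher. In that smaller set 1 assembly gene was called lower in *Sirt2*-/- mice, where 11.6% of all tested genes were, and none in WT mice, where 13.1% were. Between genotypes edgeR called none of these genes.

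Hosts of the detected snoRNAs were tested in the same fits. Of 57 tested hosts of tested snoRNAs, 21 were called higher and 7 lower in CD8+ than in CD4+ WT TILs, where 4.89% and 6.96% of all tested genes were. In *Sirt2*-/- TILs 3 of 68 were called higher and 1 lower, where 0.918% and 1.32% of all tested genes were. The shares over all tested genes were not matched to the hosts in level, which affects how readily a gene is called. Across pairs of a tested snoRNA and its tested host, log2 fold changes had a Spearman correlation of 0.33 in WT (67 pairs) and 0.36 in *Sirt2*-/- mice (78 pairs). These pairs share all libraries, and some share a host. *Eif4a1*, which carries *Gm25835*, had a log2 fold change of 1.30 (edgeR adjusted p = 0.000525) in WT mice. *Gm25835* itself had 253, 574, 419 and 870 counts in CD4+ and 319, 880, 741 and 774 counts in CD8+ WT replicates, which overlap. It was not called by edgeR, but limma-voom called it in the direction of its host (0.83, SE 0.22, limma-voom adjusted p = 0.00744). *Ipo7*, the host of *Snora23*, was called in both genotypes (0.78 in WT and 0.75 in *Sirt2*-/- mice, edgeR adjusted p = 0.0145 and 0.0228), and *Snora23* had log2 fold changes of -0.25 (SE 0.58) and 0.97 (SE 1.39). *Prrc2b*, the host of *Gm25632*, was called lower in CD8+ WT TILs (-0.61, edgeR adjusted p = 0.0109). The median standard error of the log2 fold change in WT mice was 1.35 for tested snoRNAs and 0.39 for all tested genes.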

How the data were processed

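Total RNA of CD4+ and CD8+ TILs was sequenced in 16 libraries. The authors deposited whole-number read counts for each gene, without normalization. The submitters' processing notes name STAR, HTSeq and mm10. Versions, counting mode and strand setting are not given in the sources used here. All 55450 gene identifiers are those of GENCODE M21 (GRCm38), which supplied positions, hosts and sequences. The detected snoRNAs and the gene lists were chosen with earlier results of these data known.

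Counts were tested in R 4.3.3 with edgeR 4.0.16 (TMM, filterByExpr, robust quasi-likelihood, two-sided) within each pair of groups, with Benjamini-Hochberg adjustment over all genes tested and a threshold of 0.05. The edgeR standard error (SE) was derived as the absolute log2 fold change divided by the square root of the F statistic. Summed levels were not tested. Named were the 5 most abundant snoRNAs of each class, those with the 2 smallest p values per comparison, those at the threshold, the core proteins and called list genes; others, such as *Gm24339* and *Gm26448*, were chosen after their values were seen. One of the abundant box C/D snoRNAs and one sequence are not reported here. Functions were tested on simulated data. Alternatives were DESeq2 1.42.0, limma-voom (limma 3.58.1) with quality weights, other size factors and filters, 1 model for all libraries, a replicate block and leaving out libraries. A floor of 3 counts covers counting error only, since the counts are of reads without molecular identifiers.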

Additional observations from a re-analysis of the deposited data

Results flagged for a closer look

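Values that lay far from the other 3 of their group were looked for in 80 groups of 4 values, and 13 were found. Chance would give about 4 if the groups were independent. These groups share libraries and snoRNAs, and some snoRNAs were named for their small p values. The 13 can therefore not be compared with the 4. Of the 13, the libraries with few genes detected gave 7. *Sirt2*-/- CD4+ replicate 4 had 88 snoRNAs without a count, a log2 ratio of box C/D to H/ACA CPM of -1.36 and a *Snord13* level of 5.86 CPM. WT CD4+ replicate 1 had 57 snoRNAs without a count and a *Gm25632* level of 8.01 CPM. WT CD8+ replicate 1 had 34 snoRNAs without a count and a *Snord53* level of 13.0 CPM.

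The other 6 came from libraries with over 15000 genes detected. *Sirt2*-/- CD8+ replicate 2 had a summed H/ACA level of 37.2 CPM, with *Snora23* at 10.5 CPM and *Snora73b* at 5.21 CPM. WT CD4+ replicate 4 had *Snord17* at 95.4 CPM. *Sirt2*-/- CD8+ replicate 1 had *Snord34* at 3.21 CPM and 0 snoRNAs without a count, against 1 in each of the other replicates.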

How the results depend on the processing

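The number of called snoRNAs was 0 in both genotype comparisons and in the difference between them under every alternative run. In WT mice CD8+ and CD4+ TILs differed for 1 snoRNA with DESeq2, 5 with limma-voom, 1 without the libraries under 15000 genes detected and 1 at an adjusted p below 0.1, where 17.8%, 37%, 28% and 16.6% of all genes were called, and for 0 when any single library was left out. In *Sirt2*-/- mice the count was 1 with DESeq2, 3 with limma-voom and 2 without those libraries, where 8.49%, 28.4% and 25.4% of all genes were called, and 0 to 2 over single libraries left out, with 2 without CD4+ replicate 4. The CD8+ to CD4+ counts thus depend on the tool and on CD4+ replicate 4, and the cause was not tested. Of the summed levels, the H/ACA genotype effect in CD4+ TILs (log2 ratio -0.11) moved to -0.59 without *Snora21* and to -0.54 as a mean of log2 CPM, and the H/ACA cell type effect in *Sirt2*-/- TILs (0.56) moved to 1.5 as a mean of log2 CPM. Summed levels also changed sign within the spread between libraries: between cell types in WT mice box C/D went from 0.25 to -0.10 and H/ACA from 0.15 to -0.14 without the libraries under 15000 genes detected. Over single libraries left out the summed log2 ratio ran from -0.0807 to 0.25 (box C/D) and -0.0194 to 0.50 (H/ACA) between genotypes in CD8+ TILs, from -0.23 to 0.0684 (H/ACA) between genotypes in CD4+ TILs, and from -0.0448 to 0.35 (H/ACA) between cell types in WT mice.

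Fold changes of uncalled snoRNAs changed sign in places, that of *Snord13* in CD4+ TILs from 2.78. With limma-voom and without the libraries under 15000 genes detected, those of *Snord13* in CD4+ TILs were -0.56 and -0.39, of *Snora21* in CD4+ TILs -0.31 and -0.20, of *Snord17* between cell types in WT mice -0.11 and -0.35, and of *Snora21* there -0.56 and -0.22. That of *Gm24339* in *Sirt2*-/- mice was 0.71 with limma-voom, 0.0897 with at least 10 counts in every library, 0.26 with the replicate block and 0.69 without those libraries. Over single libraries left out, the ranges that crossed 0 were -0.0873 to 0.37 (*Snord17*) and -0.00903 to 0.41 (*Snord15a*) and -0.21 to 0.71 (*Snora23*) between genotypes in CD8+ TILs, -0.21 to 0.55 (*Snord17*) and -0.57 to 0.0374 (*Snora23*) between cell types in WT mice, and -0.13 to 0.68 (*Snora21*) and -0.22 to 0.70 (*Gm24339*) between cell types in *Sirt2*-/- mice. The box C/D core proteins called higher in CD8+ TILs numbered 3 to 4 under every alternative in both genotypes (3 in WT mice without CD8+ replicate 4), and those of the H/ACA particle 1 to 4 in WT and 0 to 4 in *Sirt2*-/- mice, with 0 under the replicate block.

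Equal replicate numbers are not shown to pair libraries: the residual correlations ran from -0.07 to 0.08 between genotypes in CD4+ and from -0.06 to 0.03 in CD8+ TILs, and from 0.07 to 0.12 between cell types in WT and -0.01 to 0.13 in *Sirt2*-/- mice. With the replicate number as a block 0 snoRNAs were called in every comparison. With 4 libraries a group, a change above its standard error could also go uncalled, as that of *Gm25632* between cell types in WT mice did. An uncalled snoRNA is thus not shown to be unchanged.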
